A study of Homo sapiens with 20 samples.

Results

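The genes of MHC class II antigen presentation were followed in 5 established human cell lines exposed to the cytokines IFNg (interferon gamma), TNFa (tumor necrosis factor alpha) or both. The set held 9 genes, taken by symbol from a table of 35168 genes: CIITA, CD74, HLA-DRA, HLA-DRB1, HLA-DMA, HLA-DMB, CTSS, IFI30 and RFX5. All 9 were in the table, and 8 reached 1 TPM in at least 2 of the 20 libraries, HLA-DRA being the exception. The lines of acute myeloid leukemia (AML) were Kasumi-1, NOMO-1 and THP-1, and the endothelial ones were iHUVEC and TIME. Each line gave 1 library with IFNg, 1 with TNFa and 1 with IFNg+TNFa, each after 24 h at 10 ng/ml of each cytokine, and 1 without cytokine. Each AML group therefore held 3 libraries and each endothelial group 2, and the line was the replicate. No line was repeated within a treatment, so in fits within 1 treatment errors and p-values measure the spread between lines. In the fits of 20 libraries each line has its own level. There they measure the spread of responses between lines, library noise included. That spread was pooled over the treatments and over AML and endothelial lines. An endothelial error or p-value therefore does not measure how far iHUVEC and TIME alone differed.

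MHC class II molecules carry peptides from the lysosome to the cell surface, where CD4+ T cells read them. An alpha and a beta chain pair in the endoplasmic reticulum around the invariant chain, which CD74 encodes, and lysosomal proteases such as CTSS then cut that chain down. HLA-DM, made by HLA-DMA and HLA-DMB, exchanges the remaining fragment for antigenic peptide, and IFI30 reduces disulfide bonds in the antigens. Transcription of these genes is controlled by CIITA, a coactivator that does not bind DNA itself but docks on a complex of RFX5, its RFX partners and NF-Y at the X and Y boxes of class II promoters. CIITA is made constitutively in professional antigen-presenting cells and is induced by IFNg, with IRF1 among the factors involved, in many other cells, endothelium among them.

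Values are TPM as deposited by the authors, shares of transcripts corrected for length, so the sequencing depth is unknown. A change is a difference of log2(TPM + 1), printed ± its moderated standard error from limma, and this scale understates the change of weakly expressed genes. The NOMO-1 libraries stood apart: 13 mitochondrially encoded genes held 73.2 to 82.1% of their listed TPM, against 11.9 to 24.8% in the other lines, a share that is missing from every other NOMO-1 value. In NOMO-1 that share was 73.2% with IFNg and 82.1% with both cytokines. Median-of-ratios scaling divides TPM by 0.36 and 0.18 in these libraries, so unscaled NOMO-1 ratios between them carry that difference. Libraries with both cytokines were the columns named x2, the only treatment of each line without another column. The labels held against marker genes: 10 myeloid markers summed to 618 to 6070 TPM in AML libraries and 26.4 to 116 TPM in endothelial libraries. The 10 endothelial markers summed to 1.48 to 29.4 TPM in AML libraries and 985 to 2670 TPM in endothelial libraries. In bulk RNA, fewer cells of a type and less RNA per cell cannot be told apart.

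Promoter sequence is shown for the 4 members whose promoter entry held matches to both an X-box core and a Y-box motif. The windows cover the 130 bases before the annotated start, 5′ to 3′ on the strand of the gene, from the RefSeq promoter table (GRCh38.p14). Capitals mark matches to TGATGA, taken here as the X-box core, and to ATTGG or its reverse complement CCAAT, the Y-box motif. Both motifs were picked after these promoters had been read.
CD74: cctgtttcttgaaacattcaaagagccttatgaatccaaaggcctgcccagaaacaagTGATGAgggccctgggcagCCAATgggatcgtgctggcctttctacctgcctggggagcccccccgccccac
HLA-DRB1: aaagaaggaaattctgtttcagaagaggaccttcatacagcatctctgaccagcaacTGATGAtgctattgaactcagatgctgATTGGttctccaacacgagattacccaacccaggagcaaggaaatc
HLA-DMA: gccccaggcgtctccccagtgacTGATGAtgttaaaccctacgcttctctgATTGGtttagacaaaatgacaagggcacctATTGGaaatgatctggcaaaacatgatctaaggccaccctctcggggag
HLA-DMB: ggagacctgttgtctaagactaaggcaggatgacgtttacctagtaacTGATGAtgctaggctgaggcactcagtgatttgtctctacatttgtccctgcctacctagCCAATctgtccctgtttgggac
The CD74 window lies at chr5:150412911-150413040, that of HLA-DRB1 at chr6:32589849-32589978, that of HLA-DMA at chr6:32953098-32953227 and that of HLA-DMB at chr6:32941029-32941158, all on the minus strand. TGATGA began at -72, -73, -107 and -82 in that order of genes, counted from the annotated start. In CD74, HLA-DRB1 and HLA-DMA a Y-box motif followed within the next 30 bases, at -53, -46 and -79. In HLA-DMB the nearest match was farther away, at -22, and was not shown to be a Y box. Searched on both strands, TGATGA was present in 10.9% of the 35116 promoters of the table, ATTGG in 34.6% and both in 4.11%. The promoter entries of IFI30 and RFX5 held no TGATGA, and a match is a description of letters, not of binding. Promoter entries matched 6 of the 9 members.

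More members were called with both cytokines than with IFNg alone in AML lines (5 against 1), while the same 4 were called with either in endothelial lines. In AML lines the share of all genes called differed too (26.0% against 0.645%), and 6 and 5 members had an unadjusted p under 0.05 by limma. IFNg+TNFa compared directly with IFNg in AML lines called no member, so a larger response to both was not shown. Of the 8 members tested in AML lines, 5 rose with IFNg+TNFa (CIITA, CD74, HLA-DRB1, CTSS and IFI30), against 26.0% of all genes called in either direction and 7.33% called higher. In endothelial lines 4 rose with IFNg+TNFa (CIITA, CD74, CTSS and IFI30), against 14.5% of all genes called and 4.18% called higher. With IFNg alone CIITA, CD74, CTSS and IFI30 rose in endothelial lines, where 0.425% of all genes were called, and CD74 did in AML lines, where 0.645% were. With TNFa alone CTSS rose in endothelial lines, against a background of 1.02%. No member passed limma in AML lines with TNFa, where 0.0864% of genes did and 2 members had an unadjusted p under 0.05, nor over all 5 lines, where 0.146% did and 4 members had. HLA-DRB1, HLA-DMA and HLA-DMB passed the filter on low values through AML libraries alone, were at or near 0 in endothelial ones, and none was called there. A call here is an adjusted p under 0.05 (Benjamini-Hochberg over 15043 genes).

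**Figure D1:**
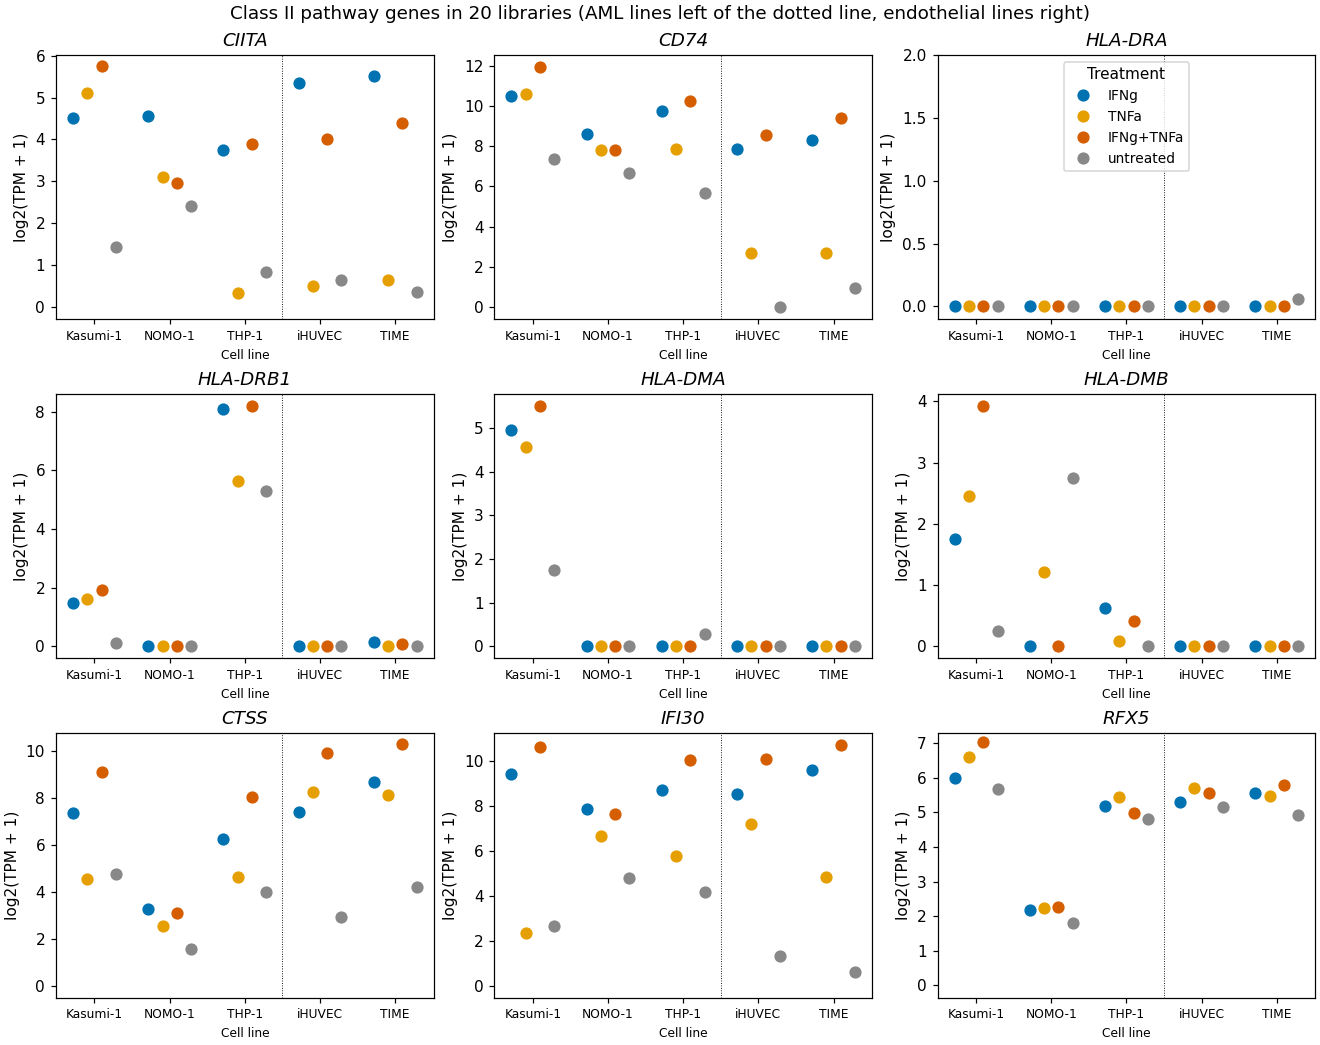
Level of each of the 9 genes, as log2(TPM + 1), in the 20 libraries; each point is 1 library, coloured by treatment, with AML lines left of the dotted line and endothelial lines right of it. CD74, CTSS and IFI30 with IFNg or IFNg+TNFa lie above the untreated point in all 5 lines, while HLA-DRA lies at or near 0 throughout and HLA-DMA is high in Kasumi-1 alone.

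CIITA (ENSG00000179583; chromosome 16, 10866222 to 10943021, plus strand, GRCh38, GENCODE v29) rose with IFNg in endothelial lines. It had 39.4 TPM in iHUVEC and 44.4 TPM in TIME with IFNg, against 0.562 and 0.279 TPM without cytokine. The change was 4.92 ± 0.87 (adjusted p = 0.027 by limma). In AML lines CIITA had 21.9 TPM in Kasumi-1, 22.4 TPM in NOMO-1 and 12.4 TPM in THP-1 with IFNg, against 1.70, 4.35 and 0.78 TPM in untreated cells. The change of 2.71 ± 0.71 did not pass the test (adjusted p = 0.162). Over all 5 lines the IFNg change of CIITA was 3.59 ± 0.67 (adjusted p = 0.014), with 0.791% of all genes called in that comparison, and was positive in 5 of 5 lines. The response to IFNg was not shown to differ between AML and endothelial lines for any member, where 0.00665% of all genes were called by limma. Of the 2 members with an unadjusted p under 0.05, CD74 had a difference of -4.58 ± 0.85 (adjusted p = 0.278). For CIITA the difference was -2.21 ± 1.13 (adjusted p = 1.000). The endothelial call was lost without iHUVEC (adjusted p = 0.464) or TIME (0.674), where 1 endothelial line was left, and the 5-line call without THP-1 (0.080), iHUVEC (0.085) or TIME (0.151).

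With TNFa alone CIITA was high in Kasumi-1 and low in THP-1, iHUVEC and TIME. With TNFa, Kasumi-1 had 33.4 TPM, against 1.70 TPM untreated, a ratio of 19.6. NOMO-1 had 7.60 TPM with TNFa and 4.35 TPM untreated. THP-1 had 0.252 TPM with TNFa and 0.78 TPM untreated, iHUVEC 0.412 and 0.562 TPM, and TIME 0.572 and 0.279 TPM. The Kasumi-1 change of 3.67 lay outside the range of the other 4 lines, -0.51 to 0.69. The AML mean change was 1.28 ± 0.71 (adjusted p = 0.798) and the endothelial one 0.08 ± 0.87 (adjusted p = 1.000), so neither passed the test. In Kasumi-1 the CIITA level with TNFa was above that with IFNg (21.9 TPM), and each is a single library.

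In unscaled TPM, CIITA with both cytokines was above its untreated level in each line, and lowest in NOMO-1. It had 52.7 TPM in Kasumi-1, 6.72 TPM in NOMO-1 and 13.7 TPM in THP-1 with IFNg+TNFa, against 1.70, 4.35 and 0.78 TPM in untreated cells (2.63 ± 0.71, adjusted p = 0.018). The endothelial libraries had 15 TPM in iHUVEC and 20.1 TPM in TIME with IFNg+TNFa, against 0.562 and 0.279 TPM untreated (3.70 ± 0.87, adjusted p = 0.014). In both endothelial lines that level was below the one with IFNg alone, with ratios of IFNg+TNFa to IFNg of 0.381 in iHUVEC and 0.452 in TIME. The same ratio of unscaled TPM was 0.30 in NOMO-1, 1.11 in THP-1 and 2.41 in Kasumi-1. Median-of-ratios factors in NOMO-1 were 0.18 with both cytokines, 0.36 with IFNg and 0.34 untreated. In the other lines with both cytokines they were 1.04 to 1.42, so unscaled NOMO-1 levels cannot be set directly against theirs. In the fit of all lines the endothelial difference of -1.22 ± 0.87 did not pass the test (adjusted p = 0.50), and in a fit of the 8 endothelial libraries alone it did (adjusted p = 0.024). No member was called by limma for IFNg+TNFa against IFNg in AML lines, where 7.35% of all genes were and no member had an unadjusted p under 0.05. None was called over all 5 lines (15.8% of all genes, 1 member at an unadjusted p under 0.05). None was called in endothelial lines either, where 6.00% of all genes were and 1 member, CTSS, had an unadjusted p under 0.05. The call of CIITA with both cytokines was lost in AML lines without Kasumi-1 (1.79, adjusted p = 0.072), iHUVEC or TIME (both 0.082), and in endothelial lines without iHUVEC (0.192) or TIME (0.394).

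**Figure D2:**
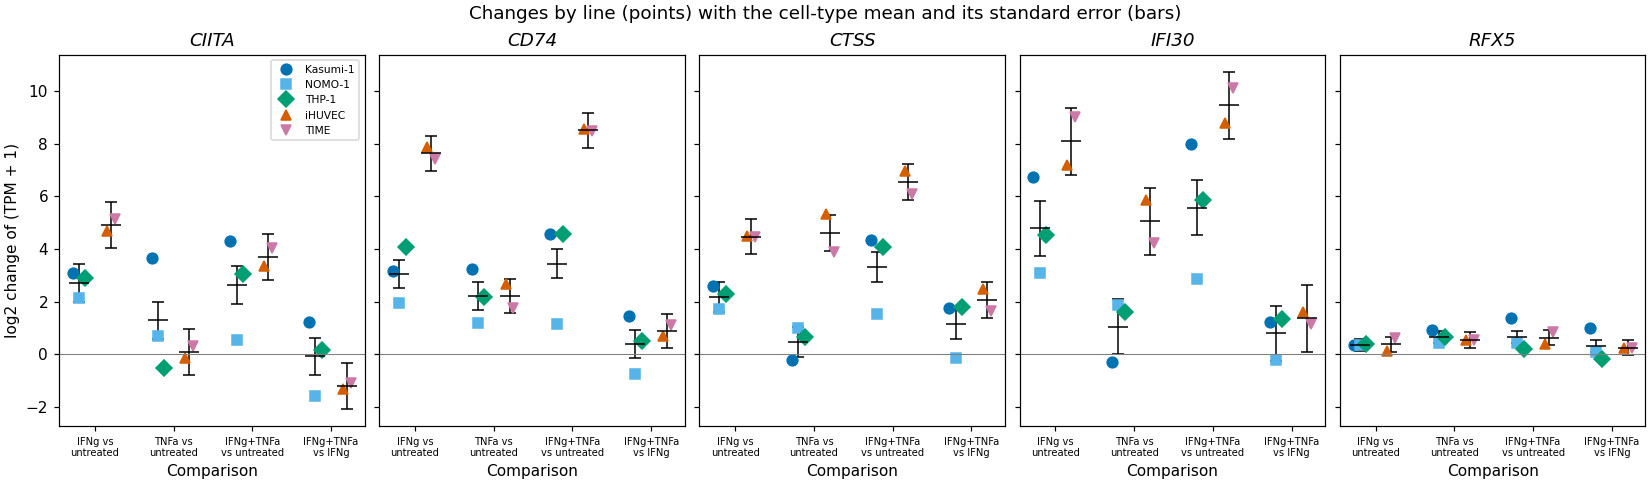
Log2 changes of 5 members in 4 comparisons; coloured points are the 5 lines and black bars the mean ± standard error of limma for the 3 AML lines (left of each pair) and the 2 endothelial lines (right). CIITA with TNFa stands out in Kasumi-1 at 3.67, and IFNg+TNFa against IFNg is negative for CIITA but positive for CD74 in both endothelial lines.

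The table listed 18 CIITA transcripts, of which 14 reached 1 TPM in some library, and their starts fall into 4 classes in GENCODE v29. A group of 2 transcripts starts at 10866222 and 10866260, 8 start between 10877198 and 10877331 and are called the main cluster here, 1 starts at 10878969, 1771 bases downstream of the main cluster's first base, and 7 start inside the gene from 10901559 on. CIITA is known to use alternative promoters in different cell types, but the annotation used here does not name them, and no start was assigned to one. The far upstream transcripts stayed at or below 0.34 TPM in every library. The main cluster held most of the gene in Kasumi-1, THP-1 and both endothelial lines wherever CIITA reached 1 TPM, between 51.3 and 79.0% of its TPM.

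The downstream transcript ENST00000576601 (626 bases, 7 exons) took a larger share in endothelial cells. It held 31.2% of CIITA in iHUVEC and 37.3% in TIME with IFNg, and 37.2% and 37.5% with IFNg+TNFa. In THP-1 it held 20.7% with IFNg and 10.9% with both, and in Kasumi-1 14.3% with IFNg, 6.40% with TNFa, 22.7% with both and 10.5% untreated. In TPM, Kasumi-1 had 12 of it with IFNg+TNFa, against 3.13 with IFNg and 2.14 with TNFa, so its level with both cytokines exceeded the sum of its levels with each alone. Shares were given only where the gene reached 1 TPM, and the difference in share between cell types was not tested.

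NOMO-1 had another mix of CIITA transcripts. Transcripts with internal starts held 84.4% of CIITA in untreated NOMO-1 cells and 73.8, 64.3 and 66.3% with IFNg, TNFa and both, against 7.11 to 25.3% in the libraries of the other lines where CIITA reached 1 TPM. The largest of them, ENST00000646979 (4 exons, 10922167 to 10936388), had 8.94 TPM in NOMO-1 with IFNg and 1.99 TPM untreated, and at most 0.358 TPM in any library of another line. The downstream transcript was at 0 to 0.0781 TPM in NOMO-1, and most of the TPM assigned to CIITA there lay on the internal transcripts. The span of ENST00000646979 overlaps DEXI on the opposite strand (10928891 to 10942460) and AC133065.3 on the same strand (10933903 to 10936280). AC133065.3 was not among the listed genes. In GENCODE v29 transcripts it holds 11.2% of the 31-base windows of CIITA. The part of these overlaps in the NOMO-1 values was not tested. The long main-cluster transcript ENST00000618327 (4657 bases, 20 exons) had at most 0.537 TPM in NOMO-1, against 20 TPM in Kasumi-1 and 7.23 TPM in TIME with IFNg+TNFa.

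Of the 12 CIITA transcripts that passed the filter, 3 rose with IFNg+TNFa over all 5 lines, against 10.8% of 63614 transcripts called. They were ENST00000618327 (2.45 ± 0.55, adjusted p = 0.011), ENST00000575513, a retained intron inside the gene (1.06 ± 0.27, adjusted p = 0.020), and ENST00000576601 (2.10 ± 0.54, adjusted p = 0.022). None was called by limma with IFNg, where 0.223% of transcripts were, and 10 of the 12 had an unadjusted p under 0.05. Nor was any called with TNFa (0.0424% of transcripts called, 0 of the 12 at an unadjusted p under 0.05) or for IFNg+TNFa against IFNg (1.98%, 1 of the 12). ENST00000618327 had 8.05, 0.187 and 4.14 TPM in Kasumi-1, NOMO-1 and THP-1 with IFNg, against 0.429, 0 and 0 TPM untreated, and 11.7 and 14.7 TPM in iHUVEC and TIME, against 0 and 0. The IFNg+TNFa count was 2 without THP-1, 1 without Kasumi-1 or iHUVEC and 0 without TIME. DEXI on the opposite strand overlaps CIITA by 13570 bases, and reads of the 2 genes cannot be told apart there unless the counting used strand, which the sources used here do not give. DEXI fell by 0.88 ± 0.18 in AML lines with IFNg+TNFa (adjusted p = 0.005).

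**Figure D3:**
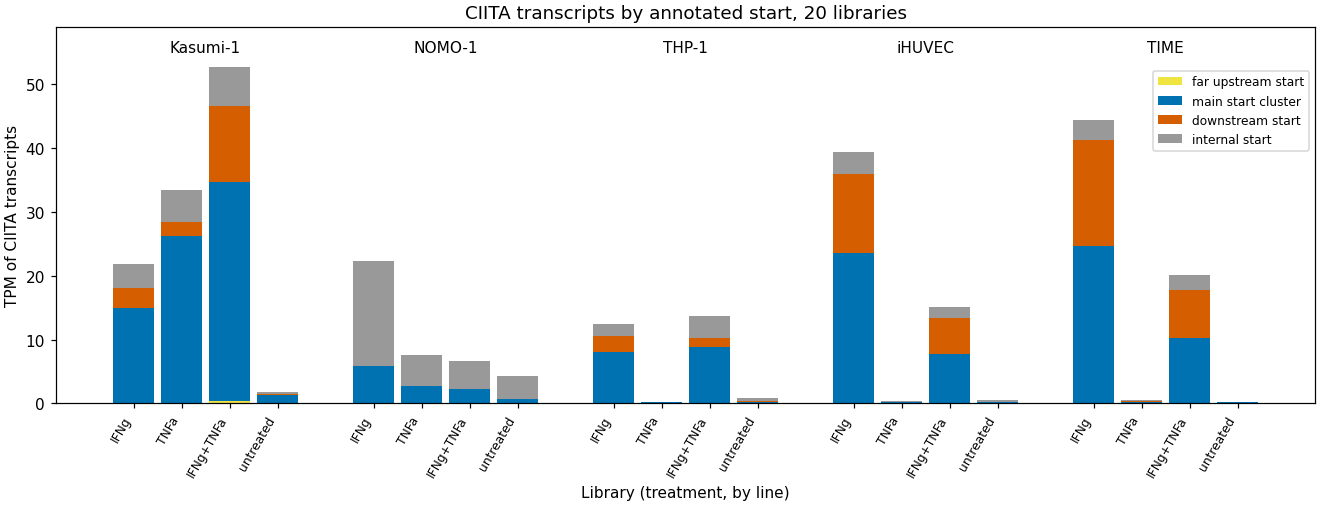
TPM of CIITA in each library, stacked by the annotated start of its transcripts; bars run by line and treatment, and the colours are 4 start classes. The vermilion downstream start takes 31.2 to 37.5% of the induced level in the endothelial lines, and the grey internal starts 64.3 to 84.4% in NOMO-1.

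CD74, which encodes the invariant chain (ENSG00000019582; chromosome 5, 150401637 to 150412929, minus strand), rose with IFNg and with IFNg+TNFa in both cell types. It had 1460, 388 and 851 TPM in Kasumi-1, NOMO-1 and THP-1 with IFNg, against 164, 101 and 49.5 TPM untreated (3.05 ± 0.54, adjusted p = 0.019). Endothelial libraries had 232 TPM in iHUVEC and 318 TPM in TIME with IFNg, against 0 and 0.898 TPM untreated (7.63 ± 0.66, adjusted p = 1.8e-04). With IFNg+TNFa the AML lines had 3953, 227 and 1206 TPM (3.44 ± 0.54, adjusted p = 0.001) and the endothelial lines 372 and 680 TPM (8.51 ± 0.66, adjusted p = 1.1e-05). These calls with both cytokines held whichever of the 5 lines was left out, as did the endothelial call with IFNg. The AML call with IFNg held only without NOMO-1 (adjusted p = 0.005) and was lost without Kasumi-1 (0.086), THP-1 (0.249), iHUVEC (0.259) or TIME (0.258).

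TNFa alone left CD74 higher than in untreated cells in 5 of 5 lines without passing the test. The values were 1562, 228 and 229 TPM in Kasumi-1, NOMO-1 and THP-1 (2.20 ± 0.54, adjusted p = 0.251) and 5.40 and 5.37 TPM in iHUVEC and TIME (2.21 ± 0.66, adjusted p = 0.205). In THP-1 CD74 was 4.63 times its untreated level with TNFa while CIITA was at 0.252 TPM there. The AML change passed without NOMO-1 (2.72, adjusted p = 0.029), and the endothelial one without NOMO-1 (adjusted p = 0.035) and in the endothelial libraries fitted alone (0.022).

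CD74 differed between the cell types before treatment. Untreated AML lines had 105 ± 57.4 TPM (SD, n = 3) and untreated endothelial lines 0 and 0.898 TPM, a difference of 6.10 ± 0.82 (adjusted p = 0.005) in a fit of the 5 untreated libraries. It was 1 member called of 5 tested, against 8.49% of all genes. The response to both cytokines was smaller in AML than in endothelial lines (difference -5.07 ± 0.85, adjusted p = 0.008), the 1 member called of 8 where 2.28% of all genes were. That call was lost with a single endothelial line, without iHUVEC (0.112) or TIME (0.146). For IFNg alone the difference of the CD74 responses was of similar size, -4.58 ± 0.85, and was not called (adjusted p = 0.278). In that comparison 0.00665% of all genes were called. With both cytokines present, AML lines (1800 ± 1930 TPM, SD, n = 3) and endothelial lines (526 ± 218 TPM, SD, n = 2) were not shown to differ (1.03 ± 1.53, adjusted p = 0.827). No member was called in that fit by limma, where 6.80% of all genes were and 2 of 6 tested members had an unadjusted p under 0.05.

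The CD74 transcripts also set NOMO-1 apart. ENST00000377795 held 72.7 to 87.2% of CD74 in NOMO-1 (4 libraries), against 7.79 to 30.7% in the 14 other libraries where the gene reached 1 TPM. ENST00000353334 held 12.1 to 25.9% in NOMO-1 and 67.1 to 81.7% in those others. The ranges did not overlap, and the difference was not tested.

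CTSS (ENSG00000163131; chromosome 1, 150730196 to 150765957, minus strand) encodes cathepsin S, the protease that makes the last cuts in the invariant chain. With IFNg+TNFa it had 550, 7.46 and 266 TPM in Kasumi-1, NOMO-1 and THP-1, against 26.0, 1.92 and 14.8 TPM untreated (3.32 ± 0.56, adjusted p = 0.002). In iHUVEC and TIME it had 952 and 1269 TPM with both cytokines, against 6.59 and 17.5 TPM untreated (6.54 ± 0.68, adjusted p = 1.1e-04). CTSS was the 1 member called with TNFa alone in endothelium: 301 TPM in iHUVEC and 275 TPM in TIME, against 6.59 and 17.5 TPM untreated (4.61 ± 0.68, adjusted p = 0.005). In AML lines with TNFa it had 22.1, 4.82 and 23.7 TPM (0.47 ± 0.56, adjusted p = 0.955). IFNg alone gave 168 and 409 TPM in iHUVEC and TIME (4.47 ± 0.68, adjusted p = 0.012), and 161, 8.46 and 75.2 TPM in the AML lines (2.18 ± 0.56, adjusted p = 0.140), a change that passed without NOMO-1 (2.43, adjusted p = 0.026).

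In unscaled TPM the ratio of IFNg+TNFa to IFNg for CTSS was 5.66 in iHUVEC, 3.11 in TIME, 3.41 in Kasumi-1, 3.54 in THP-1 and 0.882 in NOMO-1. The endothelial difference of 2.06 ± 0.68 missed the threshold (adjusted p = 0.104), and passed in the endothelial libraries fitted alone (0.024) and without NOMO-1 (0.014). The AML difference passed without NOMO-1 (1.79, adjusted p = 0.027) and not with it (1.14 ± 0.56, adjusted p = 0.221). Both calls of CTSS with the combined cytokines held whichever line was left out. The endothelial call with TNFa was lost without iHUVEC (0.387) or TIME (0.092), and that with IFNg without THP-1 (0.070), iHUVEC (0.250) or TIME (0.315).

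IFI30 (ENSG00000216490; chromosome 19, 18173162 to 18178117, plus strand) encodes the lysosomal thiol reductase GILT and had the largest mean change of the 8 tested members in AML lines with IFNg and with IFNg+TNFa. In endothelial lines its mean change exceeded that of CD74 by less than its own standard error, and with a pseudocount of 0.1 in place of 1 the change of CD74 was the larger one. With IFNg+TNFa it had 1585, 200 and 1054 TPM in Kasumi-1, NOMO-1 and THP-1, against 5.29, 26.6 and 17.0 TPM untreated (5.57 ± 1.05, adjusted p = 0.003). The endothelial lines had 1095 TPM in iHUVEC and 1672 TPM in TIME with both cytokines, against 1.501 and 0.498 TPM untreated (9.45 ± 1.28, adjusted p = 6.0e-04). With IFNg alone the endothelial values were 361 and 765 TPM (8.09 ± 1.28, adjusted p = 0.015), and the AML values 678, 231 and 413 TPM (4.78 ± 1.05, adjusted p = 0.072, and 0.049 with median-of-ratios scaling). All 5 lines had more IFI30 with IFNg than without cytokine, 8.67 times in NOMO-1 and 128 times in Kasumi-1.

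TNFa split the lines for IFI30. Kasumi-1 had 4.13 TPM with TNFa and 5.29 TPM untreated, although its CIITA and CD74 were high with TNFa. NOMO-1 had 98.5 TPM, THP-1 53.8, iHUVEC 145 and TIME 27.3 TPM with TNFa, all above their untreated levels. The change was 1.05 ± 1.05 in AML lines (adjusted p = 0.927) and 5.05 ± 1.28 in endothelial lines (adjusted p = 0.109). The endothelial change passed without Kasumi-1 (adjusted p = 0.019) and in the endothelial libraries fitted alone (0.049). The AML call of IFI30 with both cytokines held whichever line was left out. The endothelial call with IFNg was lost without THP-1 (0.101), iHUVEC (0.180) or TIME (0.498), and that with both cytokines without TIME (0.071). Of the 31-base windows in the GENCODE v29 transcripts of IFI30, 44.6% also occur in transcripts of other genes, mostly AC007192.1 (39.1%), so its level could be split between them. The share was 14.5% for CIITA, 7.90% for CTSS, 1.27% for CD74 and 0.696% for RFX5.

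RFX5 (ENSG00000143390; chromosome 1, 151340640 to 151347357, minus strand), a DNA-binding subunit of the RFX complex, had the smallest called change of the members. With IFNg+TNFa it had 129, 3.80 and 30.6 TPM in Kasumi-1, NOMO-1 and THP-1, against 49.7, 2.53 and 26.8 TPM untreated, and 45.9 and 53.9 TPM in iHUVEC and TIME, against 35.0 and 29.3 TPM. The change was positive in 5 of 5 lines and passed over all 5 lines (0.65 ± 0.16, adjusted p = 0.007), 1 of 5 members called where 35.8% of all genes were, the other calls being CIITA, CD74, CTSS and IFI30. Within AML lines it was 0.66 ± 0.23 (adjusted p = 0.053) and within endothelial lines 0.62 ± 0.29 (adjusted p = 0.166). The median gene moved by -0.19 in AML and -0.22 in endothelial lines on this scale, and by -0.02 and 0.00 after median-of-ratios scaling. With that scaling RFX5 passed in AML lines (1.03, adjusted p = 0.004) and in endothelial lines (0.94, adjusted p = 0.038). Kasumi-1 had the largest change, 1.36.

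None of the other subunits of the promoter complex was called higher with CIITA. Of 8 genes in that list, with CIITA and RFX5 among them, 1 was called higher and 2 lower in AML lines with IFNg+TNFa, where 26.0% of all genes were called and 7.33% called higher, so neither count stands far from the background. The median change was -0.15 (all genes, -0.19). RFXAP, a subunit of RFX, had 0.771, 0.0901 and 0.821 TPM in Kasumi-1, NOMO-1 and THP-1 with both cytokines, against 3.51, 0.667 and 3.55 TPM untreated (-1.09 ± 0.21, adjusted p = 0.004). NFYB, a subunit of the Y-box factor NF-Y, had 4.28, 0.690 and 9.34 TPM, against 15.53, 3.05 and 16.2 TPM (-1.21 ± 0.20, adjusted p = 0.002). Both directions were the same under each scaling tried, and both calls held whichever line was left out. RFXANK, another RFX subunit, had 92.7, 41.6 and 149 TPM, against 94.7, 62.2 and 135 TPM. In endothelial lines CIITA alone of the 8 was called, with IFNg as with both cytokines.

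The class II HLA genes themselves were patchy. HLA-DRA (ENSG00000204287; chromosome 6, 32439842 to 32445046, plus strand), which encodes the alpha chain of HLA-DR, was listed at 0 in 19 of 20 libraries and at 0.0400 TPM in untreated TIME cells. HLA-DRB1 (ENSG00000196126; chromosome 6, 32578769 to 32589848, minus strand), a beta chain partner, had 268 TPM with IFNg, 49.1 with TNFa, 290 with both and 37.9 untreated in THP-1. Kasumi-1 had 1.78, 2.08, 2.78 and 0.0710 TPM of HLA-DRB1 in the same order, and no library of another line exceeded 0.0955 TPM. In AML lines HLA-DRB1 rose with IFNg+TNFa (1.57 ± 0.50, adjusted p = 0.035), a change carried by THP-1 (2.90) and Kasumi-1 (1.82) while NOMO-1 stayed at 0. That call held without NOMO-1 (adjusted p = 0.011) and was lost without Kasumi-1 (0.122), THP-1 (0.110), iHUVEC or TIME (both 0.119). A summed HLA-DRB level gave 411 TPM in THP-1 with both cytokines and 46.8 TPM untreated.

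HLA-DM was seen in Kasumi-1 above all. HLA-DMA (ENSG00000204257; chromosome 6, 32948613 to 32969094, minus strand) had 30.3 TPM with IFNg, 22.8 with TNFa, 44.4 with both and 2.38 untreated in Kasumi-1, and at most 0.224 TPM in the 16 libraries of the other lines. HLA-DMB (ENSG00000242574; chromosome 6, 32934629 to 32941070, minus strand) had 2.35, 4.47, 14.2 and 0.191 TPM in Kasumi-1 in that order. In NOMO-1 HLA-DMB ran the other way, listed at 0 with IFNg and with both cytokines, at 1.33 TPM with TNFa and at 5.74 TPM untreated. Neither HLA-DM gene passed the test in any comparison with all 5 lines in the fit, with adjusted p-values in AML lines of 0.158 for HLA-DMA and 0.725 for HLA-DMB with both cytokines. Without NOMO-1 the HLA-DMB change with both cytokines passed (2.04, adjusted p = 0.038, against 0.45 with it). Both were at 0 in all 8 endothelial libraries, where CIITA with IFNg exceeded its level in Kasumi-1.

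**Figure D4:**
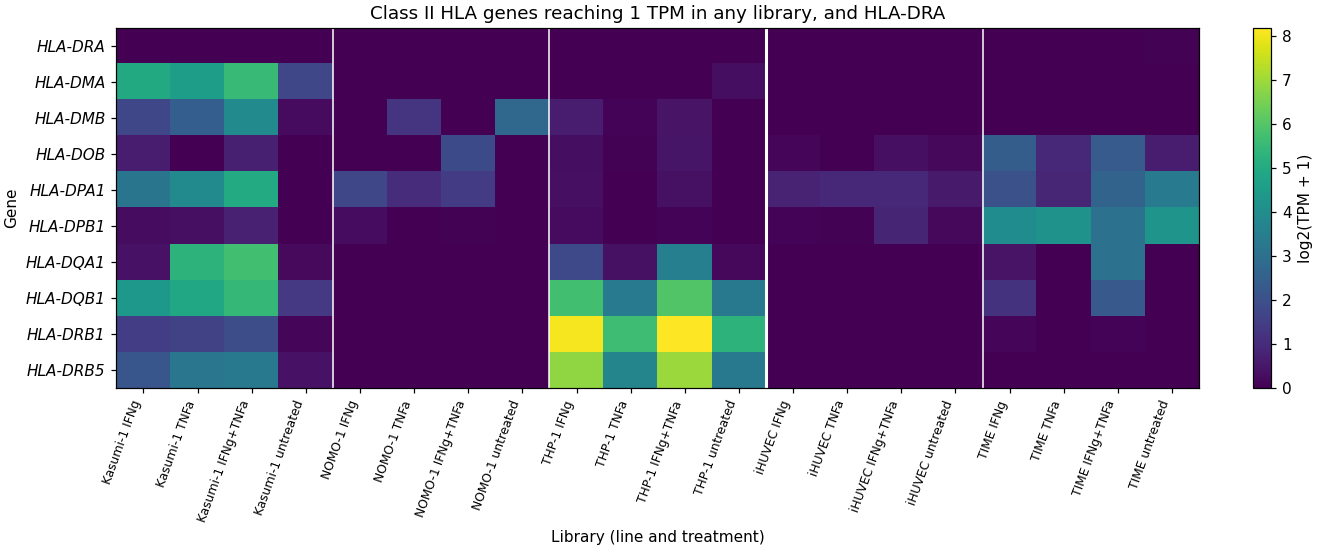
Heat map of log2(TPM + 1) for HLA-DRA and the 9 class II HLA genes that reached 1 TPM in some library; columns are the 20 libraries by line and treatment, with a thick white line between AML and endothelial lines. Kasumi-1 has HLA-DM and HLA-DQ transcripts, THP-1 HLA-DR beta and HLA-DQ transcripts, iHUVEC almost none, and HLA-DRA is dark in all columns.

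Other class II chains were also seen in some lines and not in others, and the lines differed from gene to gene. Of the 19 class II HLA genes in the table, 7 reached 1 TPM in Kasumi-1, 3 in NOMO-1, 4 in THP-1, none in iHUVEC and 5 in TIME. HLA-DQA1 had 38.3 TPM in Kasumi-1 with TNFa and 50.6 with both, against 0.153 TPM untreated, but 0.319 TPM with IFNg. HLA-DQB1 was highest in THP-1, at 61.2 TPM with both cytokines, against 8.86 TPM untreated. HLA-DPA1, HLA-DQB1 and HLA-DRB5 rose with IFNg+TNFa in AML lines (2.27 ± 0.70, 2.25 ± 0.71 and 2.18 ± 0.69, adjusted p = 0.031, 0.035 and 0.034). With HLA-DRB1 that made 4 of 6 tested alpha and beta chain genes, with a median change of 2.21 (all genes, -0.19, with 7.33% called higher). All 4 calls were lost without Kasumi-1 (adjusted p = 0.120 to 0.250), iHUVEC or TIME (0.083 to 0.120), that of HLA-DPA1 also without NOMO-1 (0.072), and the other 3 without THP-1 (0.097 to 0.123). In TIME HLA-DPB1 had 14.8, 17.4, 7.48 and 17.9 TPM with IFNg, TNFa, both and no cytokine, the highest class II chain in endothelium. Markers of professional antigen-presenting cells, 13 genes in all, summed to 7.57 to 191 TPM in AML libraries, most in Kasumi-1 with both cytokines, and to 0.654 to 2.21 TPM in endothelial libraries. Of 7 tested there, 2 were called higher and 2 lower in AML lines with IFNg+TNFa. Of 10 myeloid markers 3 were called higher and 2 lower in the same comparison, where 26.0% of all genes were called and 7.33% called higher. Of 10 endothelial markers 5 were called lower in endothelial lines with IFNg+TNFa, where 14.5% of all genes were called in either direction. CD1C and XCR1 stayed under 0.5 TPM in all AML libraries. The part of these shifts in the class II values was not tested.

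Values of HLA genes depend on how reads were assigned within the MHC, taken here as 28 to 34 Mb on chromosome 6. Of 68 genes of that interval that reached 10 TPM in an AML line, 9 (13.2%) were at 0 in every library of another AML line, against 160 of 9288 genes (1.72%) elsewhere. In endothelial lines it was 4 of 65 (6.15%) against 31 of 9319 (0.333%). In GENCODE v29 transcripts, 24.6% of the 31-base windows of HLA-DRB1 occur in other genes, mostly in HLA-DRB5 (19.5%), while HLA-DRA shares none of its 1279 windows. Between 4825 and 52060 TPM per library lay outside the listed genes, the most in the library with both cytokines in Kasumi-1, THP-1, iHUVEC and TIME. Their part in the zeros of HLA-DRA and its neighbours was not tested.

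Of the tested lysosomal enzymes that feed the pathway, a list chosen with earlier results of these data known, most rose in AML lines with both cytokines. Of 11 tested genes of that list 7 rose, where 7.33% of all genes were called higher, the median change being 2.16 (all genes, -0.19). They were CTSS, IFI30, CTSL (2.60 ± 0.33), CTSB (2.37 ± 0.30), CTSH (3.42 ± 0.59), CTSZ (2.16 ± 0.34) and the intramembrane protease SPPL2A (1.72 ± 0.36), with adjusted p-values from 4.2e-04 to 0.005, and all 7 calls held whichever line was left out. CTSB, a cathepsin, had 273, 59.7 and 300 TPM in Kasumi-1, NOMO-1 and THP-1 with both cytokines, against 40.4, 19.5 and 41.7 TPM untreated. CTSH, an aminopeptidase, had 176, 105 and 365 TPM with both and 180, 105 and 336 TPM with TNFa alone, against 13.6, 15.3 and 22.3 TPM untreated. The TNFa change of CTSH was 3.40 ± 0.59 (adjusted p = 0.059). Both genes were higher with IFNg+TNFa than with IFNg (CTSB 1.47 ± 0.30, adjusted p = 0.023, and CTSH 3.18 ± 0.59, adjusted p = 0.017), calls that were lost without Kasumi-1 (0.107 and 0.073), THP-1 (0.082 and 0.062), iHUVEC or TIME (0.115 for each).

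In endothelial lines 4 of the 11 rose with both cytokines, where 4.18% of all genes were called higher, with a median of 0.71 (all genes, -0.22). Beside CTSS and IFI30 they were LGMN, the asparaginyl endopeptidase legumain (2.87 ± 0.66, adjusted p = 0.012), and SPPL2A (2.33 ± 0.44, adjusted p = 0.004). LGMN had 329 TPM in iHUVEC and 418 TPM in TIME with IFNg+TNFa, against 54.8 and 45.3 TPM untreated, and at most 13.8 TPM in any AML library. Each call was lost without iHUVEC (0.135 for LGMN, 0.089 for SPPL2A) or TIME (0.323 and 0.179). With IFNg, 2 of the 11 rose in endothelial lines, CTSS and IFI30, and 1 in AML lines, CTSL (1.69 ± 0.33, adjusted p = 0.040), whose call was lost in each of the 5 fits that left out a line (adjusted p = 0.085 to 0.300).

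Upstream of CIITA, IRF1, a transcription factor through which IFNg reaches the CIITA promoter, rose in both cell types with IFNg and with IFNg+TNFa. With both cytokines it had 1029, 62.2 and 534 TPM in Kasumi-1, NOMO-1 and THP-1, against 27.2, 3.91 and 13.8 TPM untreated, and 770 and 938 TPM in iHUVEC and TIME, against 18.9 and 24.3 TPM untreated. With IFNg it changed by 4.27 ± 0.31 in AML lines (adjusted p = 6.6e-05) and by 4.61 ± 0.38 in endothelial lines (adjusted p = 1.5e-04), and with both cytokines by 4.68 ± 0.31 (adjusted p = 1.1e-05) and 5.25 ± 0.38 (adjusted p = 8.0e-06). IRF1 was also raised by TNFa in endothelial lines, to 157 TPM in iHUVEC and 98.6 TPM in TIME, against 18.9 and 24.3 TPM untreated (2.48 ± 0.38, adjusted p = 0.006), where CIITA had 0.412 and 0.572 TPM with TNFa. That call of IRF1 was lost without iHUVEC (0.379) or TIME (0.058). In NOMO-1, where CIITA was lower with both cytokines than with IFNg, IRF1 had 62.2 TPM with both and 88.5 TPM with IFNg. These are unscaled values of libraries whose median-of-ratios factors were 0.18 and 0.36. In iHUVEC and TIME, where CIITA was lower with both as well, IRF1 had 770 and 938 TPM with both, against 473 and 629 TPM with IFNg. IRF2, a relative of IRF1 that binds the same kind of element, rose with both cytokines in AML lines (2.59 ± 0.27, adjusted p = 1.5e-04) and in endothelial lines (1.83 ± 0.34, adjusted p = 0.004), and with IFNg in AML lines (2.20 ± 0.27, adjusted p = 0.002). JAK2, a kinase of the IFNg receptor, rose with both cytokines in AML lines (2.48 ± 0.42, adjusted p = 0.002) and in endothelial lines (2.28 ± 0.51, adjusted p = 0.011). IFNGR2, a chain of that receptor, had 49.7, 12.5 and 38.3 TPM in Kasumi-1, NOMO-1 and THP-1 with both cytokines, against 8.42, 2.35 and 8.82 TPM untreated (2.15 ± 0.38, adjusted p = 0.003). These AML calls of IRF2, JAK2 and IFNGR2 held whichever line was left out, and the endothelial ones were lost without iHUVEC (0.132 for IRF2, 0.093 for JAK2) or TIME (0.064 and 0.289). SOCS1, a feedback inhibitor of this signalling and a neighbour of CIITA on chromosome 16, rose by 5.84 ± 0.60 in AML lines (adjusted p = 1.3e-04) and 4.09 ± 0.73 in endothelial lines (adjusted p = 0.003) with both cytokines, the endothelial call being lost without TIME (0.222). PRDM1, a repressor of CIITA in plasma cells, rose in AML lines with both cytokines (2.28 ± 0.44, adjusted p = 0.004) and had 10.0, 1.19 and 12.8 TPM, against 0.522, 0.154 and 0.655 TPM untreated. IFNGR2 (1.67 ± 0.38, adjusted p = 0.031) and PRDM1 (1.63 ± 0.44, adjusted p = 0.045) were also higher in AML lines with both cytokines than with IFNg, calls that held only without NOMO-1 among the 5 fits that left out a line. In endothelial lines with both cytokines USF2, a basic helix-loop-helix factor, was called lower (-0.81 ± 0.25, adjusted p = 0.049), a call lost under median-of-ratios scaling (-0.47, adjusted p = 0.147) and without THP-1 (0.081), iHUVEC (0.296) or TIME (0.486).

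The turnover and traffic list had 2 of 10 tested genes called higher in AML lines with both cytokines, the adaptor subunit AP1S2 (1.72 ± 0.33, adjusted p = 0.004) and the myosin MYO1E (2.89 ± 0.52, adjusted p = 0.003), and none lower, where 26.0% of all genes were called and 7.33% called higher. MYO1E was higher with both cytokines than with IFNg as well (2.51, adjusted p = 0.024), a call lost without Kasumi-1 (0.083), THP-1 (0.053), iHUVEC (0.119) or TIME (0.120). In endothelial lines AP1S2 was called lower (-1.31 ± 0.40, adjusted p = 0.047), a call lost under median-of-ratios scaling (-0.97, adjusted p = 0.206) and at worst reaching an adjusted p of 0.415 when THP-1, iHUVEC or TIME was left out. Some genes of the lists passed with both cytokines only over all 5 lines, where 35.8% of all genes were called. HLA-DQA1 was among those called higher. HLA-DOB, a chain of the HLA-DM inhibitor HLA-DO, was higher (0.98 ± 0.27, adjusted p = 0.012), and so were the tetraspanin CD82 (0.85 ± 0.25, adjusted p = 0.016) and the kinase JAK1 (0.87 ± 0.30, adjusted p = 0.034), while the cathepsin CTSF was lower (-0.72 ± 0.19, adjusted p = 0.010). The call of HLA-DOB held in the 4 fits without a line that tested it. That of CTSF was lost without TIME (0.064), that of CD82 without Kasumi-1 (0.083), NOMO-1 (0.074) or iHUVEC (0.087), and that of JAK1 without Kasumi-1 (0.126), iHUVEC (0.077) or TIME (0.109). Before treatment the tetraspanin CD9 (-9.99 ± 0.72, adjusted p = 0.002), MYO1E (-4.63 ± 0.92, adjusted p = 0.022) and JAK1 (-3.66 ± 0.84, adjusted p = 0.038) were lower in AML than in endothelial lines, where 8.49% of all genes were called. CD9 was lower with both cytokines too (-9.36 ± 1.29, adjusted p = 4.0e-05, and 0.168 without iHUVEC), and the untreated calls of MYO1E and JAK1 were lost without iHUVEC (0.065 and 0.383) or TIME (0.120 and 0.531), that of JAK1 also without THP-1 (0.079). For comparison, 10 genes of MHC class I presentation were tested with both cytokines. Of these 6 rose in AML lines (median change 1.77) and 9 in endothelial lines (median change 3.27). Of all genes, 7.33% were called higher in AML lines and 4.18% in endothelial lines, with median changes of -0.19 and -0.22. Among 5 tested neighbours of CIITA on chromosome 16, SOCS1 was called higher in both cell types and DEXI lower in AML lines with both cytokines. In either direction 26.0% of all genes were called in AML lines and 14.5% in endothelial lines.

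Among the other tested genes, those whose log2(TPM + 1) followed CIITA most closely over the 20 libraries were ALPK1 (Pearson r = 0.87), CD74 (0.80), PTGES3P1 (0.79), GBP5 (0.79) and GBP2 (0.74). With the mean of each line subtracted they were CD74 (0.91), ALPK1 (0.90), EDEM2 (0.88), IL18BP (0.86) and GBP2 (0.85). Among the members IFI30 came next by that measure (0.76), then CTSS (0.64), HLA-DRB1 (0.57), RFX5 (0.43), HLA-DMA (0.39) and HLA-DMB (0.26). The libraries share 5 lines and 4 treatments, so these values describe likeness and were not tested.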

How the data were processed

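Bulk RNA-seq of 20 libraries was analysed from gene and transcript tables of TPM, which the authors deposited; depth cannot be recovered from TPM, so no counting interval is given. Per the submitters' processing notes, Salmon 1.2.0, DESeq2 1.28.1 and GRCh38 p13 were used, without their roles, and neither the annotation release nor the strandedness is stated in the sources used here. The x2 columns were taken to hold IFNg+TNFa, for want of another column for that treatment. Symbols came from a gene-name table for 35051 IDs and from GENCODE v29 for 110, and 7 IDs had none. Coordinates are GENCODE v29.

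Genes with at least 1 TPM in at least 2 fitted libraries were tested with limma 3.58.1 (R 4.3.3, with a variance trend) on log2(TPM + 1), with the line as a block and the treatment within each cell type over 20 libraries. Treatment over all 5 lines, AML against endothelial lines within 1 treatment, and transcripts were fitted separately. P-values were adjusted by Benjamini-Hochberg over all features tested, and 0.05 was the threshold. The block comes from the design, since libraries of a line are the same cells: over the 30 pairs of libraries of 1 line, deviations from the group means correlated at 0.65 to 0.90, and no 2 libraries were identical. The code was tested on simulated data. Python 3.11.15, pandas 2.3.3 and matplotlib 3.10.9 were used for the rest.

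The members and lists were chosen with earlier results of these data known. Named were all 9 members, called genes of the class II lists and of that upstream of CIITA, and up to 4 others per list. The 5 genes most like CIITA by each of 2 measures were named too, and some of the 14 CIITA transcripts reaching 1 TPM. Alternatives were another pseudocount, filter, scaling, variance model, block and choice of libraries, and each line left out in turn; where 1 endothelial line remains, it is assumed to vary like the others. 1 gene of the list upstream of CIITA is not reported here.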

Additional observations from a re-analysis of the deposited data

Results flagged for a closer look

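The change of CIITA with TNFa in Kasumi-1, 3.67 on the log2 scale, lay far from those of the other 4 lines, which ran from -0.51 to 0.69. The change of IFI30 between IFNg+TNFa and IFNg in NOMO-1, -0.21, lay below those of the other 4 lines, which ran from 1.13 to 1.60. Of 20 sets of 5 lines examined in this way 2 stood out, and chance gives about 1 in 20. Each point is a single library. In NOMO-1 the mitochondrial share was 73.2% with IFNg and 82.1% with both cytokines. Median-of-ratios scaling divides TPM by 0.36 and 0.18 in these libraries, and the flagged change is in unscaled TPM. The part of these differences in the IFI30 value was not tested.

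The response of CD74 to IFNg+TNFa differed between the cell types by the interaction test of limma, AML minus endothelial lines by -5.07 on the log2 scale (adjusted p = 0.008). For IFNg alone the same difference was -4.58 and was not called (adjusted p = 0.278). CD74 had 105 ± 57.4 TPM in untreated AML lines (SD, n = 3), while iHUVEC and TIME had 0 and 0.898 TPM untreated, where the pseudocount limits the fold.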

How the results depend on the processing

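The 26 called changes of members kept their direction in all 353 alternatives and their call in 289. Counts of members called moved by over 1.5 times as follows. With a pseudocount of 0.1, TNFa in endothelial lines gave 2 instead of 1, with 81 of 15043 genes called. Without a filter on low values, IFNg gave 0 in AML lines instead of 1, and 1 over all 5 lines instead of 4. There 49 and 68 of 24256 genes were called. With median-of-ratios scaling, IFNg in AML lines gave 2, and IFNg+TNFa against IFNg over all 5 lines 1 instead of 0. There 187 and 1685 of 15077 genes were called. Without the replicate block, the counts were 0 (IFNg, AML), 2 (IFNg, endothelial), 0 (TNFa, endothelial), 1 (IFNg+TNFa, AML), 2 (IFNg+TNFa, endothelial), 0 (difference of IFNg+TNFa responses), 1 (IFNg, all lines) and 1 (IFNg+TNFa, all lines). Over all genes, 7, 11, 16, 66, 117, 17, 18 and 84 of 15043 were called without the block, in the same order. With the libraries of a cell type alone, the member counts were 0 (IFNg, AML), 3 (TNFa, endothelial) and 2 (IFNg+TNFa against IFNg, endothelial). There 69 of 13597, 148 of 13164 and 2049 of 13164 genes were called. CIITA transcripts called with IFNg+TNFa were 3, against 1 without a filter, 5 with a pseudocount of 0.1 and 0 without the replicate block, and with IFNg 0, against 1 with a pseudocount of 0.1. The cause of these moves was not tested. Leaving out a line moved calls over all genes too. IFNg+TNFa in AML lines called 2767 of 14552 genes without Kasumi-1, 3245 of 14758 without NOMO-1 and 2888 of 14643 without THP-1.

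With each line left out, the counts ran from 0 to 2 (IFNg, AML), 1 to 4 (IFNg, endothelial), 0 to 1 (TNFa, AML), 0 to 2 (TNFa, endothelial), 3 to 6 (IFNg+TNFa, AML), 2 to 4 (IFNg+TNFa, endothelial), 0 to 3 (difference of IFNg+TNFa responses), 0 to 1 (IFNg+TNFa against IFNg in each cell type), 0 to 4 (IFNg, all lines) and 1 to 2 (AML against endothelial, untreated). CIITA transcripts ran from 0 to 3 with IFNg+TNFa and from 0 to 2 with IFNg.

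Uncalled log2 changes reversed their sign as follows. Median-of-ratios scaling gave -0.15 for HLA-DMB with IFNg+TNFa in AML lines, 0.26 for CIITA in IFNg+TNFa against IFNg in AML lines, 0.68 for CTSS in untreated AML against endothelial lines, and 0.96, 0.08 and 0.03 for CIITA, IFI30 and RFX5 in AML against endothelial lines with IFNg+TNFa. Removing mitochondrial genes gave -0.08, 0.08, 0.36 and 0.70 for the first 4 of these. A pseudocount of 0.1 gave 0.00 for the difference of RFX5 responses to IFNg. With each line left out, HLA-DMB in AML lines ran from -1.06 to 1.06 with IFNg, -0.73 to 1.14 with TNFa, -1.17 to 2.04 with both and -0.10 to 1.09 for both against IFNg. RFX5 ran from -0.27 to 0.22 and -0.30 to 0.28 for the differences of responses to IFNg and to both, -0.05 to 0.56 for both against IFNg in AML lines, and -1.74 to 0.18 and -2.04 to 0.34 for AML against endothelial lines untreated and with both. CIITA ran from -0.73 to 0.68 for both against IFNg in AML lines, -0.78 to 0.61 for AML against endothelial lines with both, and -0.15 to 0.30 with TNFa in endothelial lines. CD74 ran from -0.14 to 0.97 for both against IFNg in AML lines, and CTSS from -0.80 to 0.80 for untreated AML against endothelial lines.

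With 1 library per line and treatment, and 2 endothelial lines, the endothelial tests rest on few samples, and the unknown depth leaves values near 0 without a counting error.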

Other observations

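CD80 and CD86, the costimulatory ligands that accompany class II molecules on antigen-presenting cells, were high in 1 library. Both were picked after their values were seen, from the 13 markers of professional antigen-presenting cells. Of the 7 markers tested, PAX5 and CLEC10A were called higher and CD79B and FLT3 lower in AML lines with IFNg+TNFa. There 26.0% of all genes were called, and 7.33% called higher. The median change of the 7 was -0.50 (all genes, -0.19). In Kasumi-1 CD80 had 0.415 TPM with IFNg, 0.328 with TNFa, 88.5 with both and 0.0140 untreated. CD86 had 5.91, 0.1898, 78.7 and 0.289 TPM in that order. For each gene the level with both cytokines was above the sum of its levels with IFNg and with TNFa.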
